A study of Mus musculus with 12 samples.

Results

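Neuropeptide Y and somatostatin, with their receptors and the somatostatin-related peptide cortistatin, were described across 2 brain regions and 2 training states of mice. The 10 genes were Npy, Npy1r, Npy2r, Npy5r, Sst, Cort, Sstr1, Sstr2, Sstr3 and Sstr4. They were found by gene symbol in the annotation of the array, where each had 1 probe set, and make up 10 of the 27381 genes measured. The rule that picked them used gene symbols and no expression value, but it was set with earlier results of these data known.

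Whole-transcript arrays were hybridised with pooled RNA from the hippocampus (HC) and the anterior cingulate cortex (ACC), giving 4 groups of 3 pools: HC trained, HC control, ACC trained and ACC control. All mice were C57B16/J as the labels spell the strain, carried a head fixation from surgery at 8 to 12 weeks of age, were deprived of water and were placed on a ball floating on air. Trained mice learned a visual cue for a water reward and took 27 ± 2.6 days on average to reach criterion, and control mice (untrained in the labels) had the same handling with water at random times. The labels list 16 male and 18 female mice, with RNA of 7 mice in an HC pool and of 5 in an ACC pool. The listed mice are fewer than distinct HC pools of 7 mice would need, which the labels do not explain. The methods of the study give more mice than the labels, and match each trained mouse with a control littermate of its sex. The labels place pools 1 and 2 of each group in batch 1 and pool 3 in batch 2, and do not say whether HC and ACC pools came from the same mice. The labels call the pools biological replicates, and p-values measure the spread between pools, each of which averages its mice.

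Neuropeptide Y and somatostatin are peptides that many inhibitory interneurons of the cortex and hippocampus release beside GABA, and the same cell can hold both. Their receptors couple to inhibitory Gi/o proteins, which open potassium channels and reduce calcium entry, so that the peptides dampen firing and transmitter release. In the hippocampus both peptides are best known for restraining glutamate release and seizure activity.

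All 10 genes had a mean level over the 12 pools above 2.76 on the log2 scale. That is the 95th percentile of 1365 receptor genes of the nose, which stand for the background of the array. The medians of the 12 arrays lay between 3.34 and 3.42. Of 8 measured marker genes of CA pyramidal neurons, 7 were higher in HC and 0 lower. Of 7 markers of dentate granule neurons, 5 were higher and 2 lower (C1ql3 and Pdzd2). Of 12 markers of cortical layer neurons, 8 were lower in HC and 1 higher. Of 6 markers of thalamic neurons, which neither region label names, 3 were higher in HC (Prkcd by 1.20, Slc17a6 by 0.74 and Calb2 by 1.59) and 1 lower (Rora). Their part in the differences below was not tested. The 7 choroid plexus markers and the 6 oligodendrocyte markers measured were all higher in HC, as were 5 of 6 astrocyte markers. Because the RNA came from whole tissue, fewer cells of a type and less RNA per cell cannot be told apart. The number of pools limits the precision of every value.

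Promoters are shown for Sstr2, Npy and Sstr4, which are 3 of the 4 members that differed between the regions, with that of Sst beside them because it holds a well-known sequence motif. The window of Npy2r, the other member that differed, was searched but is not printed, because it lies inside the annotated span of the gene and held no motif. The window of Sst, with the start from which it is counted, also lies inside the span of its gene. Only the bases around its motif are printed. RefSeq windows of 300 bases (GRCm38.p6, 250 before the annotated start and 50 after it) were at hand for 9 of the 10 genes, the exception being Sstr1. Each was searched on both strands for the cyclic AMP response element (CRE) TGACGTCA, its half-site TGACG, the AP-1 site TGANTCA and the Egr site GCGNGGGCG. A CRE holds the half-site on both strands. Printed 5′ to 3′ on the strand of the gene are the 250 bases before the start of Sstr2 (chr11:113619077-113619326, plus strand), of Npy (chr6:49822460-49822709, plus strand) and of Sstr4 (chr2:148395127-148395376, plus strand), and 30 bases around the CRE of Sst (chr16:23890874-23890903, minus strand). Capitals mark a CRE and, in Sstr2, also an Egr site a few bases after it.
Sstr2: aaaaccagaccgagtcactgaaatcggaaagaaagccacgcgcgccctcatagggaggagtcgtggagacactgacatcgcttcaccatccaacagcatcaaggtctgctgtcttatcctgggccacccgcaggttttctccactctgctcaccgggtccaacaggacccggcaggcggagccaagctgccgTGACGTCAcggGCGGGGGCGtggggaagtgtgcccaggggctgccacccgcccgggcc
Npy: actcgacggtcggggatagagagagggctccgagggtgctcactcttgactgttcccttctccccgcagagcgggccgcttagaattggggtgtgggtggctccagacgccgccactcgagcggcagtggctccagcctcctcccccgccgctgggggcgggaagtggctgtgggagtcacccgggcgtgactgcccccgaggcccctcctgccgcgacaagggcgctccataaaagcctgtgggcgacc
Sstr4: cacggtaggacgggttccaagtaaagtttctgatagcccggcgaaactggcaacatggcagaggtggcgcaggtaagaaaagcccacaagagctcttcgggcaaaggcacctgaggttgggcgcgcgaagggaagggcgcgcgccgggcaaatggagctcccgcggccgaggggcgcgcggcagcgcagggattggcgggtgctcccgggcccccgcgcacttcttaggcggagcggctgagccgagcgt
Sst: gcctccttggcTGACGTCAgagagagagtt

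A full CRE was in the windows of Sst, beginning 48 bases before the start, and of Sstr2, beginning 58 bases before it. Over 32851 promoter windows of the same length, 1.79% held one. The half-site was in 4 windows, those of Sst and Sstr2 as part of the CRE and those of Cort and Sstr3 without one, and 20.8% of all windows held it. An AP-1 site was in the window of Npy1r (7.81% of all windows), and an Egr site in that of Sstr2 (5.55%). The windows of Npy, Npy2r, Npy5r and Sstr4 held none of the 4 motifs. A match is a description of letters and not a binding site. Npy1r and Npy5r are neighbours, 9055 bp apart on chromosome 8.

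HC and ACC differed in 4 of the 10 genes at an adjusted p under 0.05 from limma, against 18.5% of all genes. Npy2r and Sstr4 were higher in HC (2 of 10, against 9.71% of all genes), and Npy and Sstr2 were lower (2 of 10, against 8.74%). The same 4 genes, with the same directions, passed within trained mice (9.3% of all genes) and within control mice (13.3%), although with batch as a block Sstr4 was lost in both and 3 passed. They were also the 4 whose HC pools did not overlap the ACC pools, a pattern that 11.1% of all genes had. Sst, Cort, Npy1r, Npy5r, Sstr1 and Sstr3 did not pass the test. The median difference was -0.08 over the 10 genes and -0.01 over all genes.

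**Figure D1:**
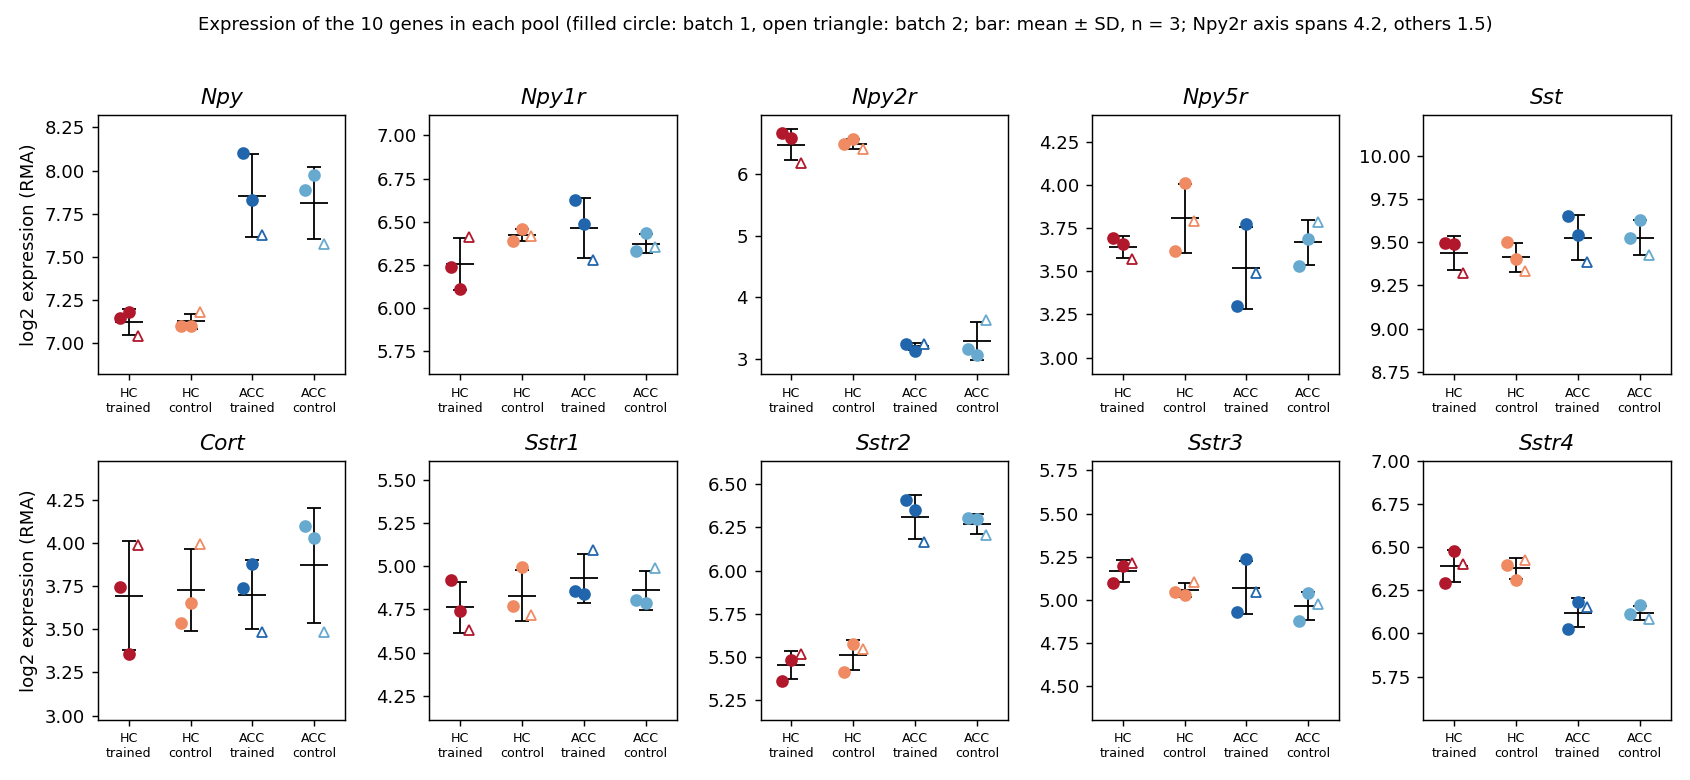
Each panel plots the log2 expression of 1 gene in the 12 pools, with circles for batch 1, triangles for batch 2 and bars for the group mean ± SD (n = 3). The panels of Npy, Npy2r, Sstr2 and Sstr4 show HC and ACC pools that do not overlap, and no panel shows trained pools apart from control pools in either region.

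Among the ligands, Npy encodes neuropeptide Y itself. In pools 1, 2 and 3 its log2 level was 7.15, 7.18 and 7.04 in HC trained mice and 7.10, 7.10 and 7.18 in HC control mice. The ACC pools had 8.10, 7.83 and 7.63 in trained mice and 7.89, 7.98 and 7.57 in control mice. The HC pools lay close together and all under the lowest ACC pool, whereas both ACC pools of batch 2 were lower than the other ACC pools. Npy averaged 7.13 ± 0.05 in HC and 7.83 ± 0.20 in ACC (SD, n = 6 each). The difference was -0.71 (SE 0.09, 95% interval -0.90 to -0.52, adjusted p = 8.39e-05 from limma), a level 1.63-fold higher in ACC. In order of size among the genes lower in HC, Npy stood at place 285 of 27381.

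Sst encodes the somatostatin precursor and had similar levels in the regions. It measured 9.49, 9.49 and 9.32 in HC trained pools and 9.50, 9.40 and 9.33 in HC control pools. The ACC pools had 9.65, 9.54 and 9.39 in trained mice and 9.53, 9.63 and 9.43 in control mice. The ranges overlapped, and pool 3 was the lowest of each of the 4 groups. Sst averaged 9.42 ± 0.08 in HC and 9.53 ± 0.11 in ACC (SD, n = 6 each). The difference of -0.10 (SE 0.07) had a 95% interval of -0.24 to 0.04, which leaves out a difference the size of that of Npy (adjusted p = 0.321 from limma). The level of Npy relative to Sst within an array, as a log2 difference whose zero has no meaning, was -2.40 to -2.15 for HC pools and -1.85 to -1.55 for ACC pools. The regions therefore did not overlap in this ratio, which was chosen after the values were seen and is given without a test.

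Cort encodes cortistatin, a peptide related to somatostatin that binds the same receptors. Its level was 3.74, 3.36 and 3.98 in HC trained pools and 3.53, 3.65 and 3.99 in HC control pools. It was 3.74, 3.88 and 3.48 in ACC trained pools and 4.10, 4.03 and 3.49 in ACC control pools. The batches ran opposite ways: both HC pools of batch 2 were above all HC pools of batch 1, and both ACC pools of batch 2 were below all ACC pools of batch 1. Averaged over the regions, batch 2 minus batch 1 was -0.016 for Cort, and this mean had an SD of 0.053 over all genes. With so small a mean, a large batch shift in HC has to come with an opposite shift in ACC. HC minus ACC was 0.50 within batch 2 and -0.36 within batch 1, with the same signs in trained and in control mice. The pooled difference was -0.07 (SE 0.14, adjusted p = 0.767 from limma). The difference between the batches was 0.87 (SE 0.17, unadjusted p = 0.000323). After adjustment over all genes it did not pass (adjusted p = 0.952 from limma), and neither did any other gene. An unadjusted p under 0.05 was found for 1340 genes (4.89%).

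Among the receptors of neuropeptide Y, Npy2r showed the widest region difference of the 10 genes. It encodes Y2, the mainly presynaptic receptor through which neuropeptide Y restrains glutamate release in the hippocampus. Npy2r measured 6.66, 6.59 and 6.19 in HC trained pools and 6.49, 6.58 and 6.40 in HC control pools. The ACC pools had 3.24, 3.14 and 3.24 in trained mice and 3.17, 3.06 and 3.64 in control mice. Every HC pool was far above every ACC pool, with the pools of batch 2 lowest in HC and control pool 3 highest in ACC. Npy2r averaged 6.48 ± 0.17 in HC and 3.25 ± 0.20 in ACC (SD, n = 6 each). The difference was 3.23 (SE 0.10, 95% interval 3.01 to 3.46, adjusted p = 1.05e-09 from limma), or 9.41-fold with an interval of 8.04 to 11.01. The ACC mean lay below the median level over all genes (3.38) and not far above the background limit of the array (2.76). The fold therefore depends in part on that background. Only 1 of the 27381 genes had a wider difference in favour of HC. The choroid plexus markers averaged 5.12 to 5.86 over the HC pools and 3.34 to 3.58 over the ACC pools. Their lowest HC pool, HC trained pool 2 at 5.12, had an Npy2r level of 6.59, within the range of the other HC pools. That pool was still above every ACC pool for these markers. The part of choroid plexus tissue in the Npy2r difference was not tested.

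Npy1r and Npy5r, which encode the Y1 and Y5 receptors, did not pass the test. Npy1r, the receptor of mainly postsynaptic effects, ranged from 6.11 to 6.46 in HC (median 6.40) and from 6.28 to 6.62 in ACC (median 6.39). Its difference was -0.08 (95% interval -0.23 to 0.07, adjusted p = 0.5 from limma). Npy5r, known for its part in feeding, ranged from 3.57 to 4.01 in HC (median 3.68) and from 3.30 to 3.79 in ACC (median 3.61). Its difference was 0.13 (95% interval -0.06 to 0.32, adjusted p = 0.37). For both genes the regions overlapped widely, and their intervals leave out a difference of the size that Npy2r had.

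Of the somatostatin receptors, Sstr2 was lower in HC. It encodes a main receptor of somatostatin in the cortex. Sstr2 measured 5.36, 5.48 and 5.52 in HC trained pools and 5.41, 5.57 and 5.55 in HC control pools. The ACC pools had 6.41, 6.35 and 6.17 in trained mice and 6.31, 6.30 and 6.20 in control mice. The highest HC pool lay well below the lowest ACC pool. Sstr2 averaged 5.48 ± 0.08 in HC and 6.29 ± 0.09 in ACC (SD, n = 6 each). The difference was -0.81 (SE 0.06, 95% interval -0.94 to -0.68, adjusted p = 1.02e-06 from limma), a level 1.75-fold higher in ACC. It stood at place 212 among the genes lower in HC.

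Sstr4 ran the other way by a smaller amount. It encodes a receptor described in the rodent hippocampus, where it dampens the excitability of pyramidal neurons. Sstr4 measured 6.29, 6.48 and 6.40 in HC trained pools and 6.39, 6.31 and 6.43 in HC control pools. The ACC pools had 6.02, 6.18 and 6.15 in trained mice and 6.11, 6.17 and 6.08 in control mice. All HC pools were above all ACC pools, although the gap between the nearest pools was small. Sstr4 averaged 6.38 ± 0.07 in HC and 6.12 ± 0.06 in ACC (SD, n = 6 each), a difference of 0.26 (SE 0.05, 95% interval 0.15 to 0.38, adjusted p = 0.0042 from limma) or 1.20-fold. The difference was 0.27 in trained mice (adjusted p = 0.0452) and 0.26 in control mice (adjusted p = 0.0462). Both calls were lost with batch as a block, at adjusted p-values of 0.071 in trained mice and 0.0699 in control mice. In batch 1 alone the pooled difference was 0.25 and did not pass (adjusted p = 0.0953). As a log2 difference within an array, Sstr2 relative to Sstr4 was -0.995 to -0.73 for HC pools and 0.01 to 0.39 for ACC pools, a ratio likewise chosen after the values were seen.

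Sstr1 and Sstr3 encode the remaining pair of receptors measured here, of which Sstr3 is known from the primary cilia of neurons. Sstr1 ranged from 4.63 to 5.00 in HC (median 4.76) and from 4.78 to 5.09 in ACC (median 4.85), a difference of -0.10 (95% interval -0.27 to 0.07, adjusted p = 0.428 from limma). In batch 2 its difference was -0.37 and in batch 1 it was 0.03. Sstr3 ranged from 5.03 to 5.21 in HC (median 5.10) and from 4.88 to 5.24 in ACC (median 5.01), a difference of 0.10 (95% interval -0.04 to 0.23, adjusted p = 0.33). The pools of both genes overlapped between the regions.

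Each batch held every group, so the region differences could be read within each of them. Npy had -0.49 in batch 2 and -0.82 in batch 1, Npy2r had 2.85 in batch 2 and 3.42 in batch 1, and Sstr2 had -0.65 in batch 2 and -0.89 in batch 1. Sstr4 had 0.30 in batch 2 and 0.25 in batch 1. The 4 genes kept their directions in both batches, and the first 3 had smaller differences in batch 2. Of all 5054 genes that differed between regions, 57.7% had a smaller difference in batch 2 and 99.9% the same sign. The region by batch term was chosen after the values were seen. Its unadjusted p from limma was 0.00673 for Npy2r, 0.0374 for Npy, 0.0858 for Sstr2 and 0.721 for Sstr4. Of the other members, Cort (0.000323) and Sstr1 (0.0109) also had one under 0.05, as did 4.89% of all genes. No adjusted p was under 0.05.

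**Figure D2:**
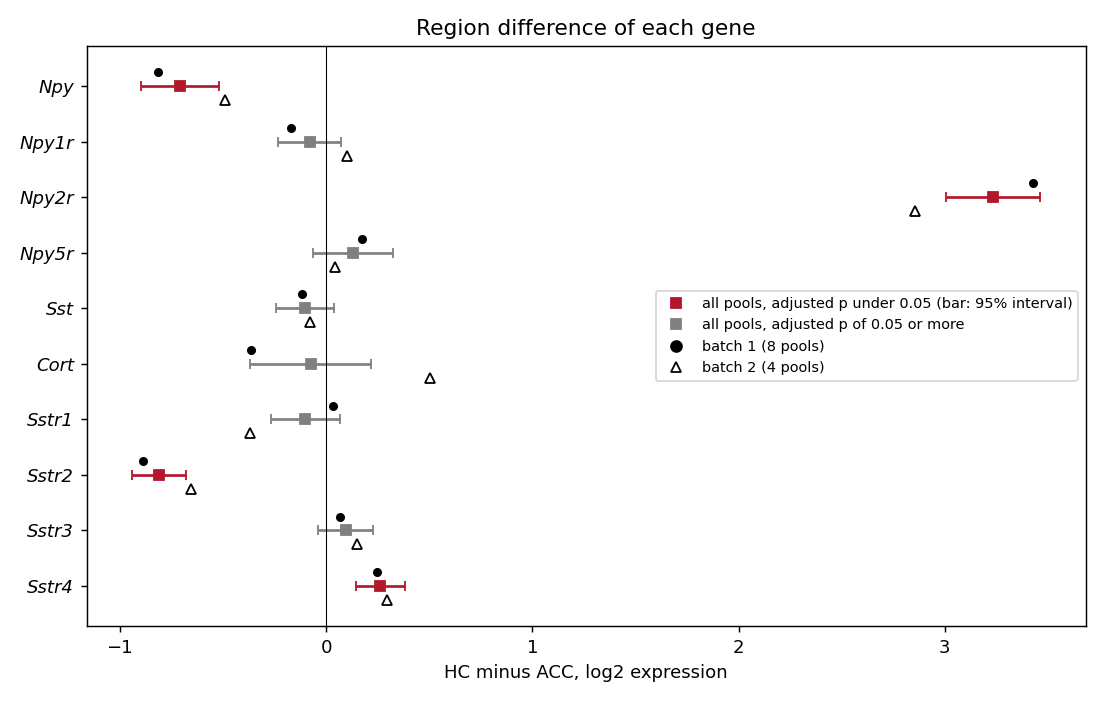
Squares give HC minus ACC on the log2 scale for each gene over all pools with the 95% interval, circles the value within batch 1 (8 pools) and triangles the value within batch 2 (4 pools). Npy2r stands apart at 3.23, Npy and Sstr2 lie at -0.71 and -0.81, and Cort has 0.50 in batch 2 but -0.36 in batch 1.

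Beyond the group means, the pools of a group varied together for some pairs of genes. Over the 12 pools, the deviations from the group means of Npy and Sst correlated at r = 0.797, the highest of 45 pairs. Npy2r and Cort had the lowest r, -0.78, and the median over pairs was -0.03. In ACC, Npy, Sst and Cort were lowest in pool 3 of each group, and Npy2r was highest in pool 3 of the control mice. In HC, Npy was highest in pool 3 of the control mice and lowest in pool 3 of the trained mice. No correlation was computed within a batch. These are descriptions over pools that share arrays and batches. By the same measure, the genes most like Npy among 13380 genes above background were Rcan1, Ctxn1, Slco1c1, Kcnk1 and Pxmp4 (r = 0.925 to 0.890). Those most like Sst were Dad1, Mt1, Usp21, Trnp1 and Higd2a (0.980 to 0.940), and those most like Npy2r were Cyb5d2, Akr7a5, Rps13, Ascc1 and Commd5 (0.958 to 0.924). Of these 15 genes only Ctxn1 also differed between the regions (-0.28, adjusted p = 0.00844 from limma). All 15 were picked as the highest among 13380 values from 12 pools, so a high r can arise by selection alone. No chance level was computed, and a link between these genes was not tested.

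The other ligands and receptors of the 2 systems were mostly at the background of the array. Only Ppy, the pancreatic polypeptide gene, and the receptor gene Sstr5 were above it, with mean levels of 3.40 and 2.82. Pyy, Npy4r, Npy6r and Dpp4, the gene of a protease that trims neuropeptide Y, had mean levels of 2.27, 2.11, 1.39 and 2.42. Of these 6 genes 2 were lower in HC and 0 higher. Ppy measured 3.30 ± 0.05 in HC and 3.50 ± 0.12 in ACC (adjusted p = 0.0434), and Dpp4 measured 2.17 ± 0.21 in HC and 2.67 ± 0.18 in ACC (adjusted p = 0.0048 from limma, SD, n = 6).

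Among the genes that turn precursors into active peptides and pack them, 2 of 9 measured were higher in HC and 2 lower. Pcsk1, the prohormone convertase that cleaves such precursors, averaged 5.90 ± 0.26 in HC and 6.89 ± 0.30 in ACC, a difference of -0.99 (SE 0.14, adjusted p = 0.000239 from limma). Cpe, the carboxypeptidase that trims the cleaved ends, was higher in HC by 0.26 (adjusted p = 0.00475). The granule proteins Chga and Chgb moved in opposite directions, with -0.19 (adjusted p = 0.0146) and 0.20 (adjusted p = 0.0212). The median of the 9 genes was -0.13.

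Downstream of the receptors, 1 of 12 Gi/o signalling genes was higher in HC and 4 were lower, with a median of -0.04. Rgs4, which speeds the shut-off of Gi/o proteins, averaged 7.76 ± 0.12 in HC and 8.86 ± 0.20 in ACC (difference -1.10, SE 0.09, adjusted p = 2.37e-06 from limma). Kcnj9, a subunit of the potassium channels that these receptors open, differed by -0.53 (SE 0.06, adjusted p = 3.36e-05). The arrestin genes, whose products uncouple receptors, went apart, with Arrb1 at -0.36 (adjusted p = 0.000173) and Arrb2 at 0.25 (adjusted p = 0.0145). Gnaz, named after its value was seen, differed by -0.18 (adjusted p = 0.0451), and the channel subunits Kcnj3 and Kcnj6 had 0.02 and 0.13 without passing the test.

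Markers of the neurons that make these peptides were measured beside them. Of 9 markers of GABAergic neurons, 0 were higher in HC and 2 were lower, Erbb4 (-0.26) and Dlx6 (-0.19), while the GABA-synthesising enzymes Gad1 (0.10) and Gad2 (0.06) did not pass the test. Their mean over the list was 5.62 to 5.76 for HC pools and 5.73 to 5.85 for ACC pools. Of 11 markers of somatostatin interneurons, 2 were higher in HC and 2 lower. Nos1, the neuronal nitric oxide synthase found with neuropeptide Y and somatostatin in some of these cells, had 0.80 (adjusted p = 5.76e-05 from limma) and Cbln4 had 0.77, whereas Satb1 had -0.39 and Tac1 had -0.57. Averaged over the list, they had 5.09 to 5.29 for HC pools and 5.06 to 5.23 for ACC pools. Of 8 markers of other interneurons, Calb2 (1.59), which is also among the thalamic markers, and Ndnf (0.45) were higher in HC, and Vip (-1.09) and Lamp5 (-1.74), also on the cortical layer list, were lower. The median differences of the 3 lists were -0.05, -0.05 and -0.14, against -0.71 for Npy, and the part of these cells in its difference was not tested.

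**Figure D3:**
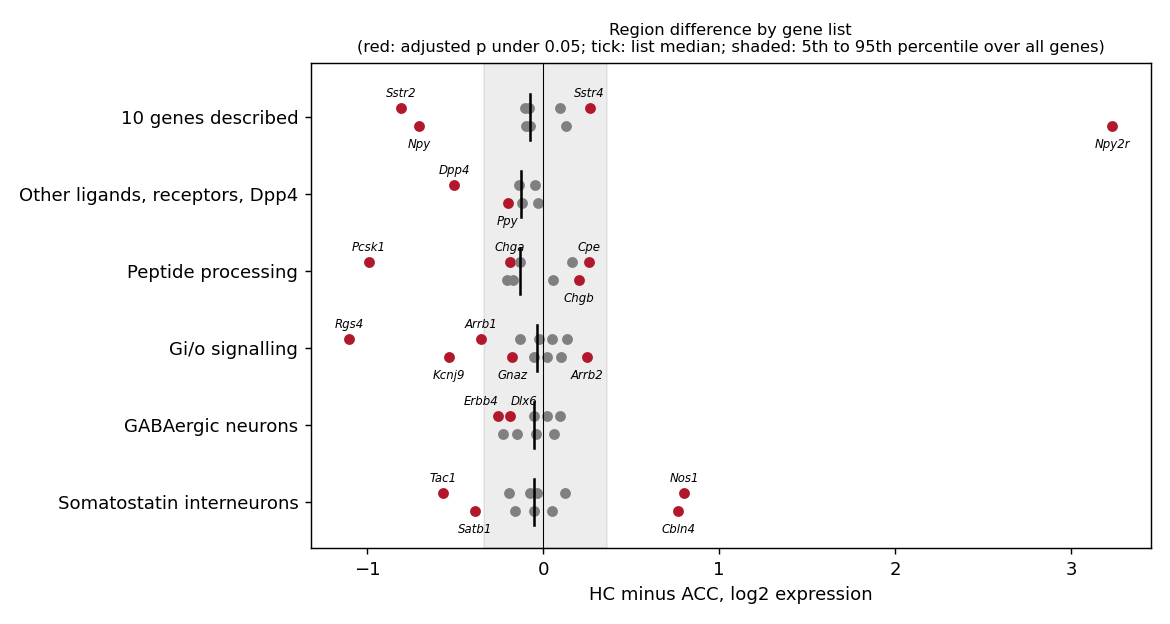
Points give HC minus ACC on the log2 scale for the genes of each list, red where the adjusted p was under 0.05, with a tick at the median of the list and shading from the 5th to the 95th percentile over all genes (-0.34 to 0.36). Among the genes plotted Npy2r lies farthest to the right, and the red points lie on both sides of 0 for the 10 genes, peptide processing, Gi/o signalling and somatostatin interneurons.

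Training, the comparison for which the study was made, was tested as trained minus control within each region. None of the 10 genes passed the test in HC or in ACC, and none had an unadjusted p under 0.05. Over all genes, limma called 0 in either region, with 6.82% in HC and 6.95% in ACC at an unadjusted p under 0.05 and smallest adjusted p-values of 0.155 in HC and 0.187 in ACC. The trained and control pools of every member overlapped in both regions, whereas 12.3% of all genes in HC and 11.6% in ACC had pools without overlap. The differences of the 10 genes ran from -0.17 to 0.11 in HC and from -0.17 to 0.11 in ACC, within the 5th to 95th percentile over all genes. Their medians were -0.02 in HC and 0.02 in ACC.

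The intervals say which sizes these 3 against 3 pools leave out. For Npy, training gave -0.0031 in HC (95% interval -0.27 to 0.27) and 0.04 in ACC (-0.23 to 0.31). For Sst it gave 0.02 in HC (-0.18 to 0.22) and -1e-04 in ACC (-0.20 to 0.20), the narrowest pair of these 3 genes. For Npy2r it gave -0.01 in HC (-0.33 to 0.31) and -0.08 in ACC (-0.41 to 0.24). The widest intervals were those of Cort, from -0.45 to 0.38 in HC and from -0.58 to 0.25 in ACC. A miss of the threshold does not show that trained and control mice had the same levels.

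Among the receptors of the 10 genes, the smallest p-values were those of Npy1r, Npy5r and Sstr3. Npy1r differed by -0.17 in HC (adjusted p = 0.815 from limma) and by 0.09 in ACC (adjusted p = 0.922). Its training difference in HC minus that in ACC was -0.26 (SE 0.14, unadjusted p = 0.0872, adjusted p = 0.629), the smallest p of the 10 genes for this term. Npy5r differed by -0.16 in HC and -0.15 in ACC, which over both regions came to -0.16 (unadjusted p = 0.108). Sstr3 had 0.11 in both, with 0.11 over both regions (unadjusted p = 0.0979, adjusted p = 0.997). Outside the 10 genes, the receptor gene Sstr5 had -0.26 in ACC (unadjusted p = 0.0109, adjusted p = 0.58 from limma). In HC it had 0.12 (adjusted p = 0.864). Within batches, 6 of the 10 genes in HC and 5 in ACC kept the same sign of the training difference in both batches.

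The Y-linked genes Kdm5d, Eif2s3y and Uty had trained minus control differences of 0.90, 0.99 and 1.06 in ACC, none of which passed the test (adjusted p = 0.574 to 0.671 from limma). Their unadjusted p-values were 0.00993 to 0.0275, and in HC the differences were 0.03, -0.08 and 0.27. Xist, the other sex-linked gene measured, had -0.78 in ACC (adjusted p = 0.745). A different share of males in the ACC pools and an effect of training cannot be told apart here. With the mean of the Y-linked genes as a covariate, 0 of the 10 genes passed the test for training in either region. The ACC difference of Npy5r was then 0.09 in place of -0.15, and that of Sstr3 was 0.17 in place of 0.11. Among the interneuron markers, the GABAergic list averaged 5.62 to 5.67 in HC trained pools and 5.70 to 5.76 in HC control pools. The lists of other interneurons (5.95 to 6.04 against 6.06 to 6.16) and thalamic neurons (5.51 to 5.58 against 5.63 to 5.70) also did not overlap in HC. The remaining lists overlapped. In ACC the GABAergic list overlapped, at 5.73 to 5.85 in trained and 5.73 to 5.77 in control pools. These list means were not tested, and 12.3% of all genes had HC pools without overlap. Dlx6, named after its value was seen, had -0.32 in HC (adjusted p = 0.386) and 0.27 in ACC (adjusted p = 0.539 from limma), and none of the listed genes passed the test for training.

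**Figure D4:**
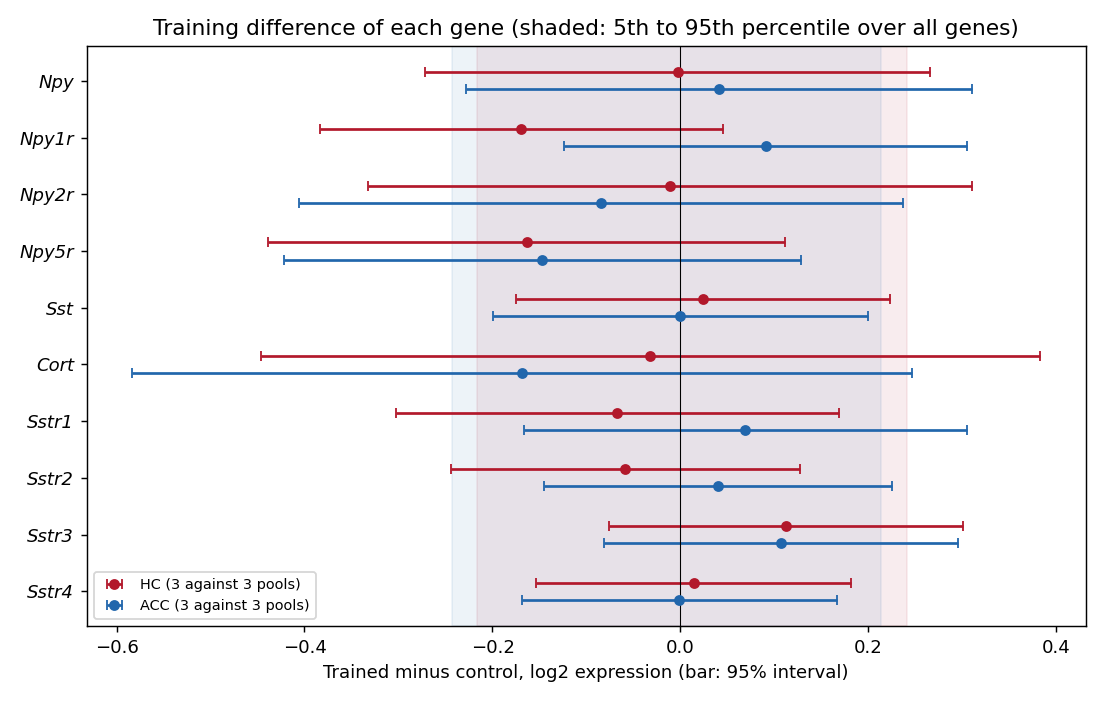
Points give trained minus control on the log2 scale for each gene in HC and in ACC (3 against 3 pools each) with 95% intervals, and shading marks the 5th to 95th percentile over all genes in each region. Every interval includes 0, and the points run from -0.17 to 0.11.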

How the data were processed

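RNA pools from HC and ACC of trained and control mice were hybridised to Affymetrix Mouse Gene 2.0 ST arrays. The authors corrected, normalized and summarised the arrays by Robust Multiarray Average (affy 1.62.0, R 3.6.0) with 1 probe set per Entrez gene, and deposited log2 expression values for 27381 genes. Whether a batch adjustment followed is not given in the sources used here. All 12 arrays were used, matched to group and pool by their labels. Symbols came from a table that pairs probe sets with genes: 26794 had 1 symbol.

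A linear model with 4 group means was fitted to all genes with limma 3.58.1 under R 4.3.3, by lmFit and eBayes with neither filter nor covariate, and the Benjamini-Hochberg adjustment ran over every gene of a contrast (threshold 0.05, two-sided). The fit was tested on simulated data. The members, the gene lists and the rule for named genes were chosen with earlier results of these data known. The rule names the 10 members, 6 further genes of the systems, up to 4 genes with the smallest p from each of the processing and signalling lists, and the 5 genes closest to Npy, Sst and Npy2r over pools. Marker genes given with values, the ratios and the region by batch term were chosen after the values were seen. Alternatives were replicate number or batch as a block, each batch alone, repeated quantile normalization, median centring, filters on low values, another variance model, array weights, a Y-linked covariate, the arrays of 1 region or training state alone, and each pool left out in turn. Arrays have no read depth, and the number of pools limits the precision. Promoter sequences are from RefSeq (GRCm38.p6), a build used only for names, positions and sequences. Some genes of the lists are not analysed here, and blood arrays, RT-PCR values and human samples were not used here.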

Additional observations from a re-analysis of the deposited data

Results flagged for a closer look

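Npy2r in ACC control pool 3 had a log2 level of 3.64, whereas the other ACC pools lay between 3.06 and 3.24. Its gap to the nearest pool took 0.685 of the range of the 6 ACC pools, over Dixon's limit of 0.625 for 6 values. It was the 1 of 20 such tests (10 genes in 2 regions) past its limit, and chance passes about 1 in 20. Without this pool Npy2r was higher in HC by 3.32, against 3.23 with it.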

How the results depend on the processing

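The region differences of Npy, Npy2r and Sstr2 kept their direction under every alternative and passed in each that gave a test, with values from -0.82 to -0.49, 2.85 to 3.42 and -0.89 to -0.65. The pooled difference of Sstr4 kept its direction (0.22 to 0.30) and was lost in batch 1 alone (adjusted p = 0.0953 from limma). With 1 pool left out at a time it passed each time (adjusted p 0.00437 to 0.0128). Within trained mice its adjusted p was 0.0433 to 0.155 with 1 pool left out and 0.0167 to 0.272 over the other alternatives, and within control mice 0.0428 to 0.129 and 0.019 to 0.316, so both calls are often lost.

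Genes called between regions numbered 2863 in batch 1 alone (5054 over all pools), 1135 within trained mice (2547) and 1633 within control mice (3649), a setting with fewer arrays. Within control mice 2088 were called with the Y-linked covariate, and 2400 to 3635 with 1 pool left out, the fewest without HC control pool 2. The region by training term called 0 to 1 genes with 1 pool left out, and 1 without ACC trained pool 2. None was a member.

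With the replicate number as a block 4431 genes and 4 members were called between regions. Within trained and within control mice the block left 3 of the 4 members, Sstr4 having adjusted p-values of 0.0731 and 0.0713, and batch as a block did the same (0.071 and 0.0699). Same-numbered pools did not deviate together (18 correlations, -0.27 to 0.04, 0 above 0.1). The most negative were those between pools 3, at -0.27 to -0.18. Averaged over the regions, batch 2 minus batch 1 was small for most genes (SD 0.053). That alone sets the deviations of pools 3 against each other, so the check cannot decide whether these pools are paired. The labels give no pairing, and the main fit used none.

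Directions turned only for differences that had not passed, and the cause was not tested. For HC minus ACC, batch 1 alone gave Sstr1 0.034, batch 2 alone gave Npy1r 0.10 and Cort 0.50, and the mean of both batches gave Cort 0.070. For training in ACC, batch 1 alone gave Npy2r 0.074 and Sst 0.019, batch 2 alone Npy1r -0.073, Sstr2 -0.037 and Sstr4 0.069, median centring Sst 0.037 and Sstr4 0.036, array weights Sst 7e-04 and Sstr4 0.0101, and the Y-linked covariate Npy -0.0255 and Npy5r 0.093. For training in HC, batch 1 alone gave Npy 0.064 and Npy2r 0.092, batch 2 alone Sst -0.01 and Sstr4 -0.023, quantile normalization again Npy 0.0205 and Npy2r 0.0155, and median centring Sstr4 -0.0085.

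With 1 pool left out, HC minus ACC of Cort ran from -0.17 to 0.0099. Training in ACC ran from -0.084 to 0.16 for Npy, -0.20 to 0.090 for Npy2r, -0.062 to 0.069 for Sst, -0.0128 to 0.13 for Sstr1, -0.0107 to 0.11 for Sstr2 and -0.0315 to 0.046 for Sstr4. Training in HC ran from -0.032 to 0.038 for Npy, -0.10 to 0.14 for Npy2r, -0.0153 to 0.080 for Sst, -0.18 to 0.14 for Cort, -0.15 to 0.0165 for Sstr1 and -0.029 to 0.063 for Sstr4. No member was called for training under any alternative.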
